A study of Mus musculus with 4 samples.

Results

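Bone morphogenetic protein (BMP) and ALK1 signaling was examined through 10 genes, taken by symbol from the 31053 gene rows of the count matrices: the ligand Bmp4, the receptors Acvrl1, Bmpr2 and Eng, the inhibitors Smad6 and Smad7, the transcriptional targets Id1, Id2 and Id3, and Tmem100. Mouse embryos at embryonic day 10.5 supplied the cells, dissected as AGM (aorta, gonad and mesonephros), the place and time at which blood stem and progenitor cells first arise from the wall of the dorsal aorta. Embryos lacked the microRNA miR-223 in every cell (KO, mir-223 -/-; 2 libraries) or were wild type (WT; 2 libraries). Endothelial cells that stained for CD31 and not for CD45 had been sorted, and their RNA was tagged at the 3′ end with unique molecular identifiers (UMIs) on the 10x Genomics platform. The labels give 2 replicate libraries per genotype and do not say how many embryos went into each, so that the p-values below measure the spread between these libraries.

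BMP ligands bind a pair of type I and type II receptor kinases, which phosphorylate Smad1, Smad5 and Smad9. These join Smad4 in the nucleus and switch on genes such as the Id family, which block basic helix-loop-helix transcription factors, and Smad6 and Smad7, which shut the pathway down again. In endothelium the type I receptor is largely ALK1, the product of Acvrl1, which works with BMPR2 and the co-receptor endoglin (Eng) and is driven by BMP9 and BMP10 in blood. Mutations in ACVRL1 or ENG cause hereditary hemorrhagic telangiectasia in humans. In the AGM, BMP4 lies beneath the ventral wall of the aorta and has been linked to the emergence of blood stem cells there.

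The KO removes miR-223-3p, which pairs with target transcripts mostly through its seed. Its mature sequence is shown because the genotype contrast rests on it, with the seed (bases 2 to 8) in capitals, read from RefSeq (GRCm38.p6, chrX:96242884-96242905, plus strand):
mmu-miR-223-3p: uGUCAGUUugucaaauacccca
The DNA letters that would pair with this seed (AACTGAC) occurred in none of the annotated 3′ UTRs of the 10 genes, with 0 matches each in the GENCODE M21 annotation. Over all 21105 genes of the matrices with an annotated 3′ UTR, 2043 (9.68%) held a match. The longest UTR searched was that of Bmpr2, at 8529 bases. The letters say nothing about targets elsewhere in a transcript or about indirect effects.

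Promoter sequence was available from RefSeq for 6 of the 10 genes, as 250 bases before to 50 after the start. Motifs known from Smad binding were searched on both strands, allowing overlaps between them: the GC-rich GGCGCC, the palindrome GTCTAGAC, and the short element CAGAC. The promoter of Smad6 is shown because it held GTCTAGAC (capitals), which 70 of 32851 promoters in the table (0.213%) contained:
Smad6, GRCm38.p6 chr9:64022010-64022309, minus strand: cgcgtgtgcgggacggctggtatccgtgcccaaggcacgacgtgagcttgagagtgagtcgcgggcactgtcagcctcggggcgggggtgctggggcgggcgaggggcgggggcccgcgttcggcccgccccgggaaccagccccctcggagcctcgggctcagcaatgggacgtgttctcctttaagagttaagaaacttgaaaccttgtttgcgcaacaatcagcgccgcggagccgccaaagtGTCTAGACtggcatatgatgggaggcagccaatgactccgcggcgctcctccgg
The promoter of Id2, shown with GGCGCC in capitals, and that of Bmpr2 each held 1 match to GGCGCC, a motif found in 11.9% of promoters:
Id2, GRCm38.p6 chr12:25096043-25096342, minus strand: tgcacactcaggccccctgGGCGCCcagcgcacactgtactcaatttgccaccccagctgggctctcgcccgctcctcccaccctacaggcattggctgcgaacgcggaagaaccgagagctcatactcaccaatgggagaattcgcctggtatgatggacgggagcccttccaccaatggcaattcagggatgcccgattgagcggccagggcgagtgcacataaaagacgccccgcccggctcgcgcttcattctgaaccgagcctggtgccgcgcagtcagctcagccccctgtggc
Eng and Id3 each held 2 matches to CAGAC, which is in 49.6% of promoters, and the Bmp4 window held none of the motifs. A match is a run of letters and not a measured binding site.

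The matrices held 31521 barcodes, of which 19167 cells passed the filters: 4122 and 5870 in KO replicates 1 and 2, and 2296 and 6879 in WT replicates 1 and 2. Median depth was 20103 and 18632 UMIs per kept cell in KO, and 30226 and 18115 in WT. Cells were clustered without the 10 genes or any of the 55 other pathway genes examined, and clusters were named from marker lists that contain none of them. Endothelial-like cells made up 15635 cells (81.6%), among them arterial-like (2732), barrier-like (2665), venous-like (1450), sinusoidal or lymphatic-like (991) and endocardial-like (229) classes and 7568 cells with no subtype. Outside the endothelium were hemogenic-like (301), mesenchymal-like (1362), primordial germ cell-like (433), neural-like (409), erythroid-like (159) and megakaryocyte-like (108) cells, and 760 cells stayed unnamed. The hemogenic-like class comprised 132 and 81 KO cells and only 12 and 76 WT cells. All 10 markers of its list were detected there, at a summed 1056 to 1293 counts of 1000000 (CPM) per library, against 82.4 to 109.3 CPM in arterial-like cells. Megakaryocyte-like cells held the same list at 412 to 546 CPM. The mesenchymal-like class pooled clusters of 688 cells (led by Foxd1, Pax1 and Meox1) and 592 cells (Prrx1, Shox2 and Pitx1). It also held a cluster of 82 cells (Col1a1, Postn and Lum), 50 of them from KO replicate 1. Which of these cells lay beneath the aorta was not measured. In the mesenchymal-like class the endothelial list summed to 155 to 261 CPM, against 4082 to 4621 CPM in endothelial-like cells. The venous-like and endocardial-like names rest on less, with 1 marker of their own list each among the 10 leading genes: Nrp2 beside the lymphatic marker Prox1 in the first, and Pdlim3 beside the mesenchymal marker Col3a1 and the erythroid marker Hbb-y in the second. Xist, which only cells with an inactive X transcribe, had a UMI in 0.0728% of kept cells of KO replicate 1, against 41.5% in KO replicate 2 and 49.5% and 40.5% in the WT libraries. The part of this difference in the KO against WT values below was not tested. Pairs of libraries shared 8 to 28 barcodes.

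Levels are given per class as CPM, UMIs of a gene scaled to a total of 1000000 UMIs over all cells of the class in a library. Because the classes come from the same cells, differences between classes are a description with no test, and 2 classes are called apart where their ranges over the 4 libraries do not overlap.

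**Figure D1:**
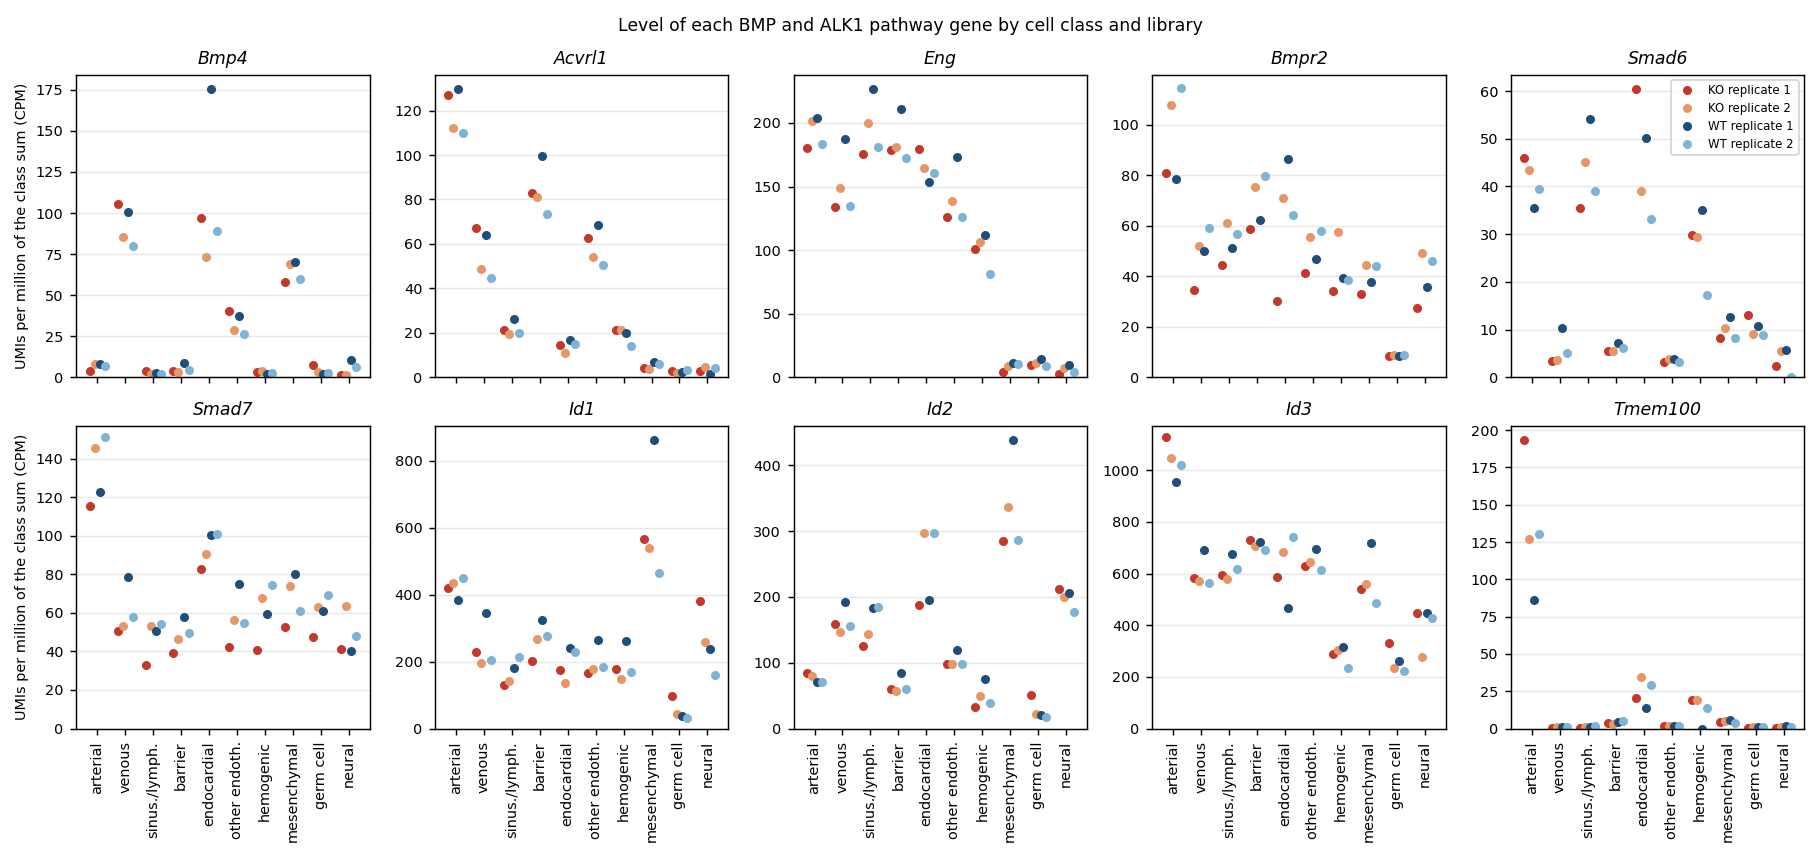
Level of each of the 10 genes (CPM of the class sum, linear axes that start at 0) in 10 cell classes, with a point per library and KO left of WT within each class. Acvrl1, Smad7, Id3 and Tmem100 peak in arterial-like cells, Id1 and Id2 in mesenchymal-like cells, and Bmp4 in endocardial-like and venous-like cells. For Id2 the mesenchymal-like points overlap with the endocardial-like ones.

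The ligand Bmp4 (chr14:46383520-46390669, minus strand, GRCm38) was made in the vein-like and mesenchymal compartments and at low levels in arterial-like or hemogenic-like cells. In venous-like cells Bmp4 reached 105 and 85.6 CPM in KO and 101 and 80.0 CPM in WT libraries. In mesenchymal-like cells it stood at 57.8 and 69.2 CPM in KO and 70.3 and 60.0 CPM in WT. The endocardial-like class overlapped with the venous-like class, at 97.0 and 73.3 CPM in KO and 176 and 89.2 CPM in WT, in a class that also carried 566 to 1480 CPM of erythroid markers. Arterial-like cells held 4.11 and 7.95 CPM in KO and 8.08 and 6.61 CPM in WT, so that venous-like cells were 10.8-fold to 25.6-fold higher for Bmp4 across the 4 libraries. Hemogenic-like cells were at 3.35 and 3.89 CPM in KO and 2.20 and 2.45 CPM in WT, from 22 UMIs in all.

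Measured as a source, the endothelium supplied most of the Bmp4 transcripts in this sort. Venous-like cells were 5.7% and 8.8% of KO cells and 6.2% and 8.1% of WT cells, yet held 17.8% and 29.1% of the Bmp4 UMIs in KO and 18.0% and 27.4% in WT. Mesenchymal-like cells held 22.3% and 11.1% in KO and 27.1% and 8.0% in WT. Each value was above their share of cells, which was 12.9% and 4.2% in KO and 15.2% and 3.4% in WT. Libraries with a larger share of mesenchymal-like cells also had a larger share of Bmp4 UMIs there. The remainder came largely from endothelial-like cells without a subtype name (52.5% and 48.9% in KO, 45.2% and 51.8% in WT). Among these, a cluster of 2086 cells had a level of 84.0 and 55.5 CPM in KO and 73.6 and 50.1 CPM in WT, and its best subtype score, too low for a name, was venous. The sort selects CD31-positive cells, so these shares do not describe the whole tissue.

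**Figure D2:**
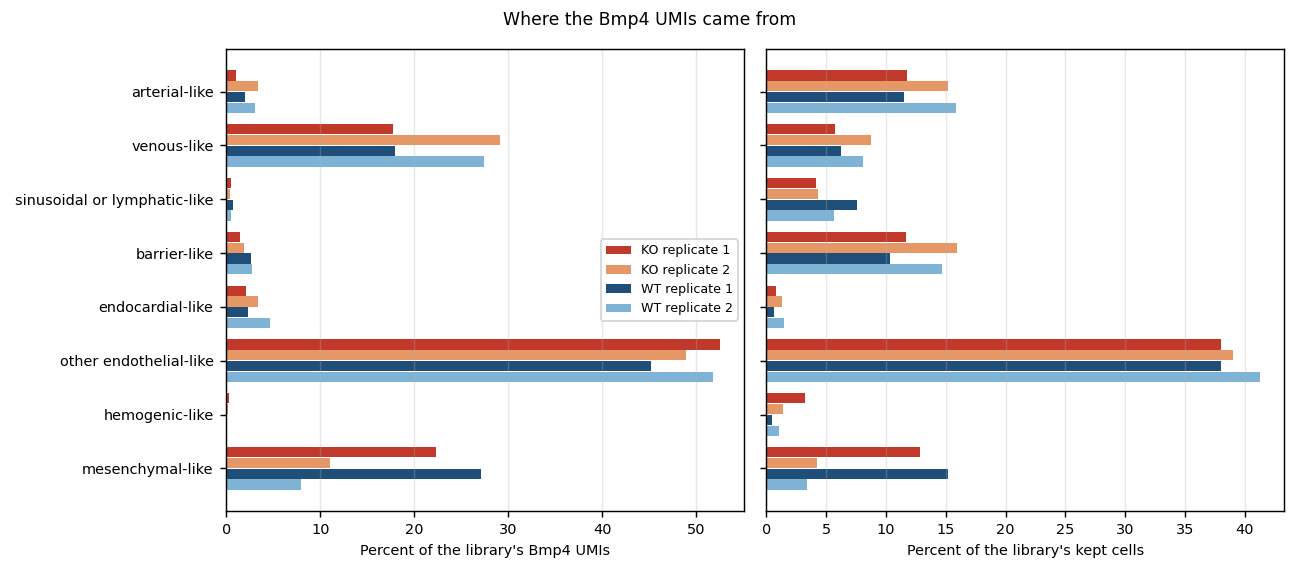
Percent of each library's Bmp4 UMIs (left) and of its kept cells (right) by class, with a bar per library and KO above WT. Venous-like cells are at most 8.8% of cells and at least 17.8% of Bmp4 UMIs, and mesenchymal-like cells vary between libraries in both.

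The share of cells with a Bmp4 UMI gave the same order. With every cell thinned to 5000 UMIs, it was 35.6% and 34.2% of KO and 36.6% and 28.6% of WT venous-like cells. In mesenchymal-like cells it was 23.0% and 25.1% in KO and 24.1% and 21.9% in WT. The same thinned share was 0.7% to 5.0% in germ cell-like cells and 1.3% to 4.2% in arterial-like cells. At full depth, 73.3% and 63.8% of KO and 73.4% and 60.4% of WT venous-like cells had a Bmp4 UMI. Germ cell-like cells, which should lack Bmp4, were the deeper class, at a median of 36470 and 40733 UMIs in KO and 57394 and 41726 UMIs in WT.

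Among the receptors, Acvrl1 (chr15:101128522-101145336, plus strand), which encodes the type I receptor ALK1, graded across the endothelium with the arterial-like class at the top. It stood at 127 and 112 CPM in KO and 129.8 and 109.9 CPM in WT arterial-like cells, above every other class in all 4 libraries. Barrier-like cells followed at 73.6 to 99.8 CPM, then venous-like cells at 44.8 to 67.0 CPM. Sinusoidal or lymphatic-like cells fell to 19.7 to 26.0 CPM, 4.99-fold to 5.97-fold below arterial-like cells, and overlapped with hemogenic-like cells at 14.1 to 21.5 CPM. Endocardial-like cells lay lower still, at 10.96 to 16.7 CPM, and overlapped with the hemogenic-like range. Mesenchymal-like cells held 3.78 to 6.69 CPM, close to the 1.98 to 3.13 CPM of germ cell-like cells.

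Eng (chr2:32646595-32682669, plus strand), the endoglin co-receptor, did not follow Acvrl1 across the endothelium. Sinusoidal or lymphatic-like cells held 176 and 199.7 CPM in KO and 227 and 181 CPM in WT, and arterial-like cells 181 and 202 CPM in KO and 204 and 183 CPM in WT. All endothelial classes overlapped with their neighbours in this order. Hemogenic-like cells lay below them at 101 and 106 CPM in KO and 112 and 81.0 CPM in WT, and far above mesenchymal-like cells at 4.23 and 8.75 CPM in KO and 11.1 and 10.6 CPM in WT. The sinusoidal or lymphatic-like class therefore combined an Eng level in the arterial-like range with a low level of Acvrl1.

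Bmpr2 (chr1:59763400-59879014, plus strand), the type II receptor, was the most evenly spread of the receptors. It was at 81.1 and 108 CPM in KO and 78.4 and 115 CPM in WT arterial-like cells, and at 32.9 to 44.3 CPM in mesenchymal-like and 34.2 to 57.8 CPM in hemogenic-like cells, and each class overlapped with the next down to neural-like cells. Germ cell-like cells stood apart at 8.44 to 8.74 CPM. Within each endothelial class tested, replicate 1 of a genotype was lower in Bmpr2 than replicate 2 of the same genotype.

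The inhibitory Smads differed from each other. Smad6 (chr9:63953076-64022059, minus strand), which competes for receptor-activated Smads, was concentrated within the endothelium in the arterial-like, sinusoidal or lymphatic-like and endocardial-like classes. It held 46.0 and 43.4 CPM in KO and 35.5 and 39.5 CPM in WT arterial-like cells, and 35.5 and 45.1 CPM in KO and 54.1 and 39.0 CPM in WT sinusoidal or lymphatic-like cells, and endocardial-like cells spanned 33.2 to 60.4 CPM. Venous-like cells held 3.49 to 10.3 CPM and barrier-like cells 5.54 to 7.21 CPM. Sinusoidal or lymphatic-like cells were thus 5.27-fold to 12.3-fold above venous-like cells. Hemogenic-like cells retained 17.2 to 35.1 CPM.

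Smad7, which targets activated receptors for degradation, was present in every class outside the blood lineages and peaked in arterial-like cells, at 115 and 145 CPM in KO and 123 and 151 CPM in WT. Endocardial-like cells followed at 82.7 to 101 CPM. The other classes overlapped between 32.8 and 80.3 CPM, with hemogenic-like cells at 40.9 and 67.8 CPM in KO and 59.3 and 74.2 CPM in WT.

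The Id targets differed in the class where each was highest. Id3 (chr4:136143497-136145755, plus strand) was highest in arterial-like cells, with 1127 and 1046 CPM in KO and 955 and 1019.7 CPM in WT. The other endothelial classes lay between 468 and 739.9 CPM, and mesenchymal-like cells, at 485 to 720 CPM, lay within that range. Id1 (chr2:152736251-152737410, plus strand) was highest in mesenchymal-like cells, at 567 and 538 CPM in KO and 862 and 463 CPM in WT, and next in arterial-like cells, at 421 and 434 CPM in KO and 382 and 451 CPM in WT. Id2 (chr12:25093799-25097140, minus strand) ran against Id3 across the endothelial classes, although the arterial-like clusters differed in Id2, as given below. It stood at 84.2 and 80.6 CPM in KO and 70.9 and 70.8 CPM in WT arterial-like cells. Venous-like cells held 146 to 193 CPM, sinusoidal or lymphatic-like cells 126 to 185 CPM and mesenchymal-like cells 285 to 439 CPM. Endocardial-like cells, at 188 to 297 CPM, overlapped with the mesenchymal-like range. For Id2, mesenchymal-like cells were 3.39-fold to 6.19-fold above arterial-like cells. Hemogenic-like cells held Id3 at 288 and 305 CPM in KO and 316 and 232 CPM in WT, below every endothelial class and 3.02-fold to 4.39-fold below arterial-like cells. Their Id1, at 148 to 261 CPM, overlapped with every endothelial class except the arterial-like one, and their Id2, at 32.8 to 74.6 CPM, overlapped with the arterial-like and barrier-like classes.

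Tmem100 (chr11:90030348-90036508, plus strand), a membrane protein gene known in mouse as a target of ALK1 signaling in arterial endothelium, was the most class-restricted of the 10 genes. It held 193 and 127 CPM in KO and 86.0 and 131 CPM in WT arterial-like cells, against 0.617 to 1.05 CPM in venous-like cells. For Tmem100 the arterial-like excess over venous-like cells was 82.0-fold to 162-fold in the 3 libraries with more than 3 venous-like UMIs. Endocardial-like cells held 13.9 to 34.2 CPM and mesenchymal-like cells 3.92 to 5.63 CPM. With cells thinned to 5000 UMIs, 42.6% and 30.9% of KO and 20.2% and 31.2% of WT arterial-like cells had a Tmem100 UMI, against 0% to 2.3% of germ cell-like cells, and at full depth the arterial-like shares were 55.6% and 40.8% in KO and 28.7% and 40.6% in WT.

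The arterial-like class held a pair of clusters that differed in most of these genes. Cluster 9 (759 cells), led by Htra1, Nkx2-3, Fbln5 and the smooth muscle marker Acta2, held Tmem100 at 408 and 337 CPM in KO and 355 and 376 CPM in WT. Cluster 2 (1973 cells), led by Cxcr4, Gja4 and Unc5b, held it at 71.7 and 62.6 CPM in KO and 28.5 and 63.6 CPM in WT. Smad6 averaged 83.3 CPM in cluster 9 and 27.8 CPM in cluster 2 over the 4 libraries, Smad7 averaged 201 and 113 CPM, and Id2 averaged 169.8 and 46.4 CPM. For Id2 the mean of cluster 9 lay inside the venous-like range of 146 to 193 CPM. Acvrl1 averaged 127 CPM in cluster 9 and 117.5 CPM in cluster 2, a smaller difference. Cluster 9 made up 39.5% and 26.9% of the arterial-like cells in KO and 18.5% and 25.6% in WT.

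**Figure D3:**
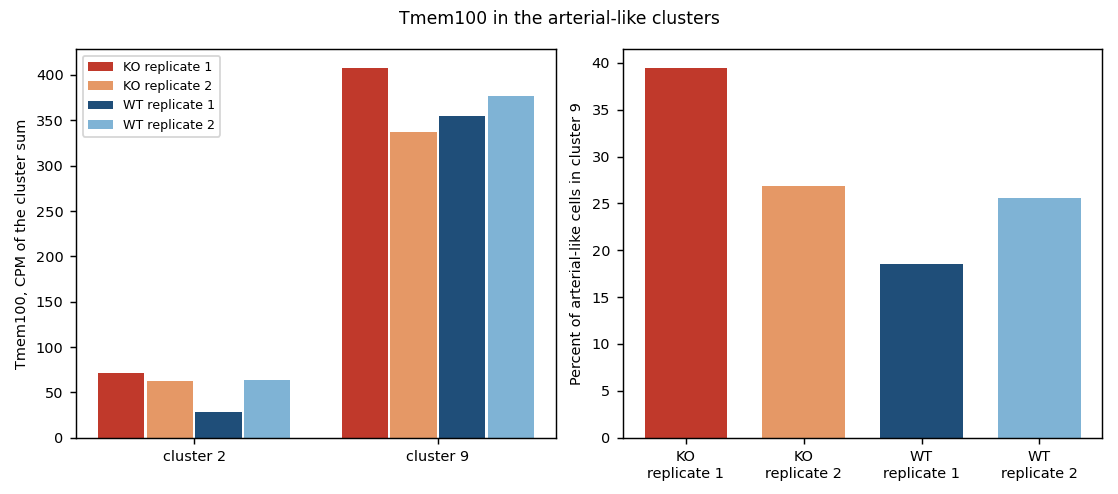
Tmem100 level (CPM of the cluster sum, left) in both arterial-like clusters, and the percent of arterial-like cells in cluster 9 (right), with a bar per library and KO left of WT. Cluster 9 is between 337 and 408 CPM in all libraries, and its share of arterial-like cells runs from 18.5% in WT replicate 1 to 39.5% in KO replicate 1.

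Relative to arterial-like cells, then, the hemogenic-like class had lower Acvrl1 (5.31-fold to 7.79-fold), Eng (1.80-fold to 2.27-fold), Bmpr2, Smad7, Id1 and Id3 in each library. Id2 was lower in 3 libraries and about equal in WT replicate 1. The summed endothelial markers of the hemogenic-like class were lower as well, at 1716 to 2142 CPM against 5449 to 5863 CPM in arterial-like cells. Blood progenitor markers were at 401 to 628 CPM against 59.3 to 74.0 CPM, and macrophage markers at 132 to 361 CPM against 4.87 to 8.85 CPM. Megakaryocyte-like cells shared both lists, at 375 to 613 and 201 to 713 CPM. The part of the makeup of the hemogenic-like class in its member levels was not tested. Tmem100 in hemogenic-like cells was 19.4 and 18.9 CPM in KO and 0 and 13.5 CPM in WT. The library at 0, WT replicate 1, has 12 hemogenic-like cells, in which 3 UMIs would correspond to 6.59 CPM, and their mesenchymal markers summed to 160 CPM, against 16.6 to 18.4 CPM in the other 3 libraries. The part of these few cells in the WT values was not tested.

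The 55 other pathway genes placed the 10 in context. The circulating ALK1 ligands were hardly detected, with 2 UMIs of Gdf2 (BMP9) and 1 UMI of Bmp10 in all endothelial-like cells. Bmp2, which along with Fst, Grem1, Bmpr1a, Gdf2 and Bmp10 was chosen after its values were seen, was the ligand of sinusoidal or lymphatic-like cells, at 95.6 and 112 CPM in KO and 104 and 115 CPM in WT, against 5.34 to 15.1 CPM in venous-like cells. Bmp4 and Bmp2 therefore marked different endothelial classes. Bmpr1a, the type I receptor ALK3, was at 55.1 to 57.7 CPM in mesenchymal-like cells and 1.01 to 2.65 CPM in endothelial-like cells, the reverse of Acvrl1.

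Among the genes with the highest mean in their role, Tgfb1 stood at 90.1 to 143 CPM in endothelial-like and 7.11 to 10.8 CPM in mesenchymal-like cells, and its type II receptor Tgfbr2 at 41.6 to 51.4 and 5.58 to 8.77 CPM in the same classes. Acvr2b, an activin type II receptor, was higher in mesenchymal-like cells (62.1 to 97.4 CPM) than in endothelial-like cells (20.4 to 24.5 CPM). Tgfb2 was at 50.8 to 76.4 CPM in arterial-like cells. The common partner Smad4 was at 52.7 to 57.2 CPM and Smad1 at 45.3 to 55.8 CPM in endothelial-like cells. Bambi, a decoy receptor, was at 145 to 179 CPM in endothelial-like and 39.9 to 66.1 CPM in hemogenic-like cells, and the phosphatase gene Ppm1a at 66.2 to 74.4 CPM in endothelial-like cells. Fstl1, a secreted BMP modulator, peaked in arterial-like cells at 302 to 406 CPM, and Twsg1, another, was at 11.7 to 13.1 CPM in endothelial-like cells. The co-receptors Neo1 and Rgmb were at 34.9 to 44.1 and 24.0 to 33.9 CPM in mesenchymal-like cells, above 13.1 to 14.3 and 7.23 to 9.67 CPM in endothelial-like cells. The targets Msx1 and Gata6 were both raised in arterial-like (36.5 to 40.6 and 31.1 to 56.2 CPM) and mesenchymal-like cells (60.3 to 95.3 and 30.5 to 49.6 CPM).

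**Figure D4:**
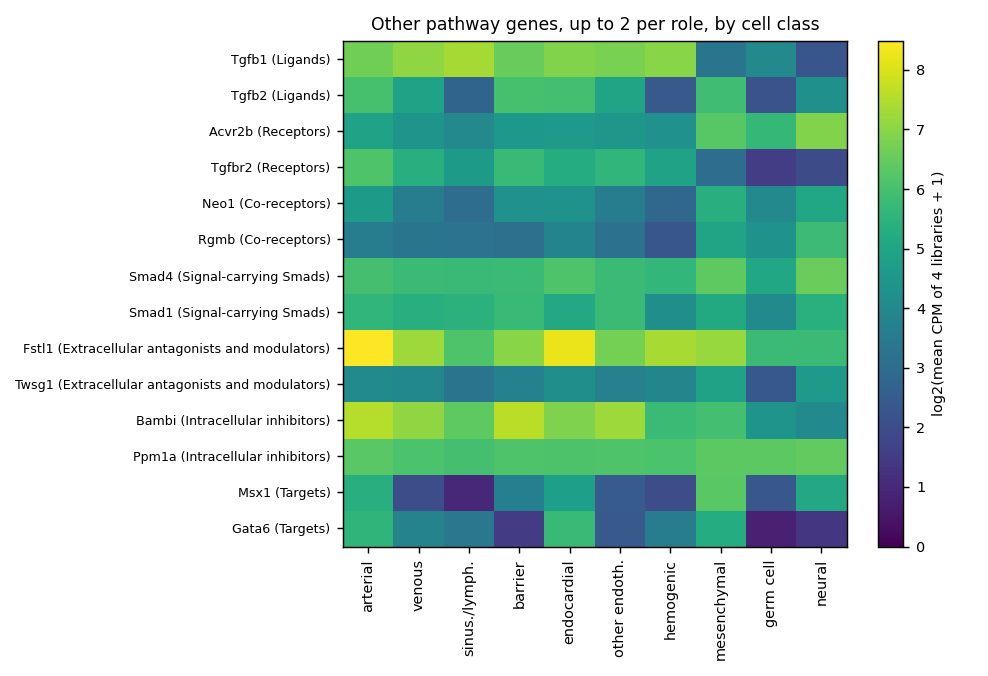
Mean level over the 4 libraries, as log2(mean CPM + 1), of the 14 other pathway genes with the highest means in their roles, by cell class. Tgfbr2, Tgfb1 and Bambi are brighter in endothelial columns, and Acvr2b, Neo1 and Rgmb in mesenchymal-like and neural-like columns.

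Across 48 class-by-library sums from 12 classes, the genes whose log2(CPM + 1) profile was most like a member's were compared by Pearson correlation among 11897 genes, as a description over sums that share libraries. For Acvrl1 these were Cldn5 (0.96), C130074G19Rik (0.96) and Cd34 (0.95), and for Eng they were Egfl7 (0.98), Rasip1 and Smagp (0.97 each). For Tmem100 they were Ltbp4 (0.89), Htra1 (0.87) and Pcsk5 (0.85), and for Smad6 Aqp1 (0.84), Sost (0.82) and Cxcl16 (0.80). For Bmp4 they were Cldn11 (0.85), Gm15222 (0.82) and Col23a1 (0.73). Bmpr2 was nearest to Armcx4, Zeb1 and Dab2ip (0.96 each), and Smad7 to Pfdn5, Map7d1 and Map4k4 (0.94 each). Id1 was nearest to Ndn (0.94), Bri3 (0.94) and Ctnnbip1 (0.93), Id2 to Smarce1, Hdgfl3 and Bex3 (0.93 each), and Id3 to Luzp1 (0.97), Cnn3 (0.97) and Tmsb10 (0.96). Of these genes, Cldn5, Egfl7 and Htra1 were also on the marker lists that named the classes. Bmp4 and Smad6 were the least alike pair of members (0.07). Among arterial-like cells thinned to equal depth, Id1 and Id3 correlated at 0.36 to 0.42 in the 4 libraries, as a description of cells that share a library.

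KO against WT was tested in each class on summed counts with the quasi-likelihood test of edgeR, with Benjamini-Hochberg adjustment over all genes of the class. No member passed the adjusted threshold of 0.05 in any of the 10 classes tested, over 91 member and class combinations that passed the filter on low counts. All genes together gave few calls as well: in the endothelial-like sum 18 of 14649 genes (0.123%) passed and 1.73% had an unadjusted p under 0.05, while of the 10 members 0 passed and 0 had an unadjusted p under 0.05. DESeq2 also called 0 members in each class. On simulated counts with known changes, the test recovered 73.2% of genes changed by 1 log2 unit and 94% of those changed by 2 in the endothelial-like comparison of 14476 genes, and 36.8% and 90% in the hemogenic-like comparison of 9030 genes. False calls, of genes simulated without a change, were 19 of 184 calls in the endothelial-like and 6 of 131 in the hemogenic-like comparison.

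In the endothelial-like sum, Bmp4 was at 33.1 and 26.2 CPM in KO and 32.0 and 24.0 CPM in WT, a log2 fold change of 0.10 ± 0.18 (SE). Acvrl1 was at 70.2 and 63.5 CPM in KO and 74.1 and 58.3 CPM in WT (0.03 ± 0.15 on the log2 scale), and Bmpr2 at 48.1 and 66.3 CPM in KO and 53.4 and 68.8 CPM in WT (-0.08 ± 0.19). In these 3 genes the KO libraries lay within or across the WT range. Eng was at 145 and 159 CPM in KO and 189 and 147 CPM in WT (-0.12 ± 0.15), Smad6 at 10.9 and 12 CPM in KO and 14.3 and 11.6 CPM in WT (-0.16 ± 0.16), and Id3 at 693 and 696 CPM in KO and 723 and 675 CPM in WT (0.01 ± 0.11). Smad7 was at 50.1 and 65.9 CPM in KO and 75.4 and 66.5 CPM in WT (-0.27 ± 0.16). Id1 was at 202 and 227 CPM in KO and 283 and 237 CPM in WT (-0.26 ± 0.14), and Id2 at 97.6 and 98.3 CPM in KO and 123 and 103 CPM in WT (-0.19 ± 0.13). For Smad7, Id1 and Id2 both KO libraries lay below both WT libraries. Tmem100 was at 22.6 and 18.3 CPM in KO and 11.3 and 18.2 CPM in WT (0.48 ± 0.23), both KO libraries lying above both WT libraries by a narrow margin. Of the 10 members 4 thus did not overlap between genotypes, as did 19.6% of all 14649 genes. Each member's adjusted p from edgeR was 0.9998. Without WT replicate 2, Tmem100 passed (log2 fold change 0.88, adjusted p = 0.0015), with WT replicate 1 as the lone WT library and its spread assumed to be like that of the others. The median log2 fold change was -0.10 over the 10 members and -0.00 over all genes tested.

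**Figure D5:**
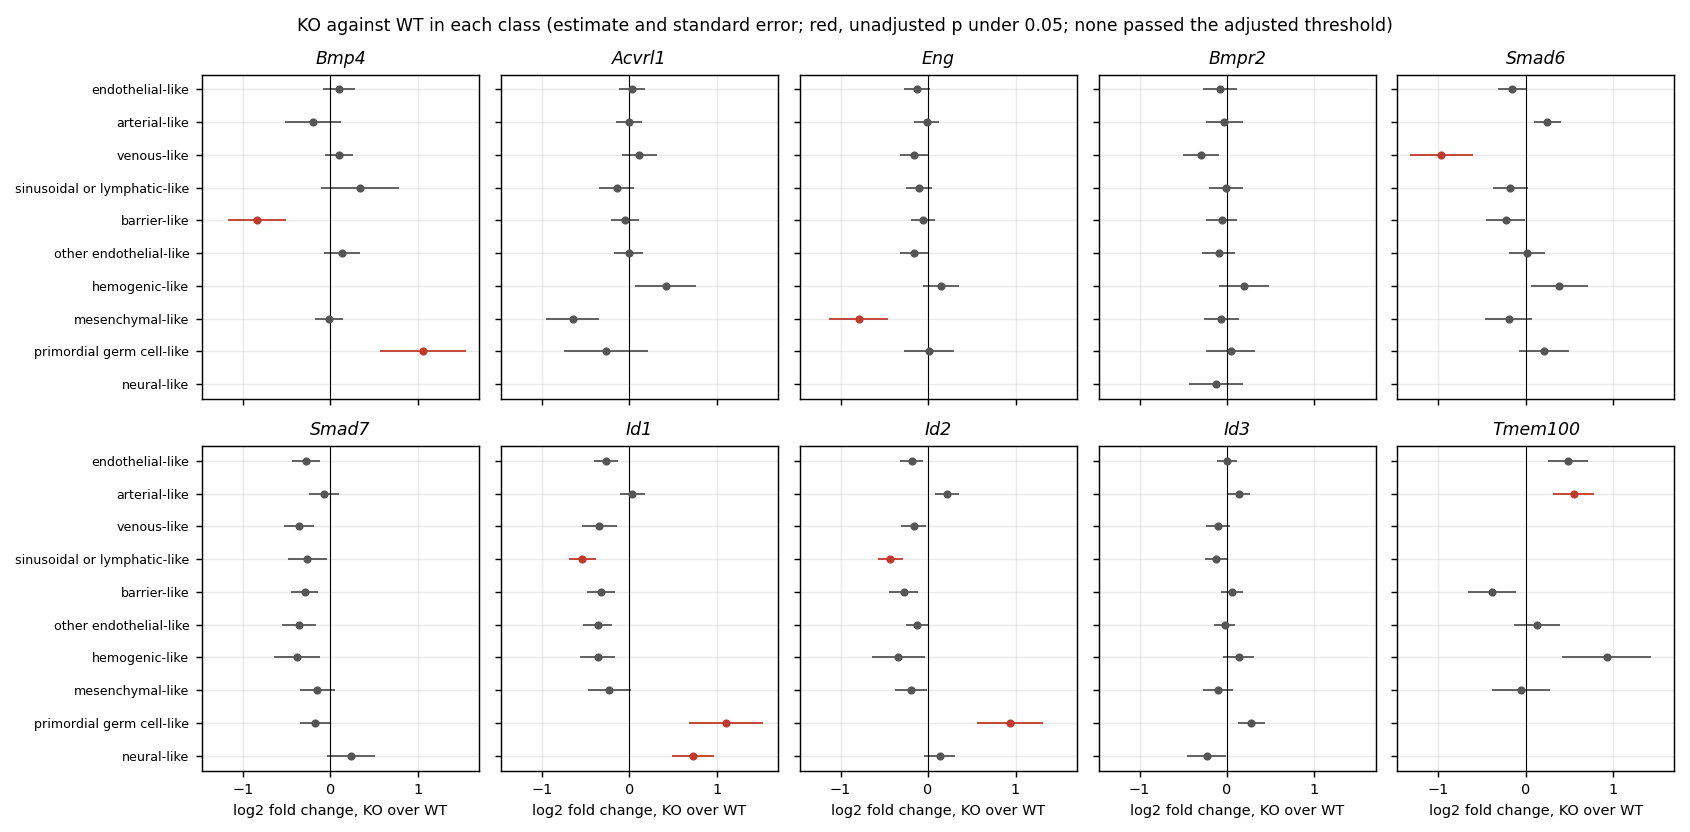
Log2 fold change of KO over WT with its standard error for each of the 10 genes in the classes where it was tested, with the endothelial-like sum on top. Red points have an unadjusted p under 0.05 (such as Smad6 in venous-like and Id1 in primordial germ cell-like cells), and none passed the adjusted threshold.

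In arterial-like cells 0.0338% of 11826 genes passed the adjusted threshold and 2.1% the unadjusted one, and of the 10 members the counts were 0 and 1. The 1 was Tmem100, at the 193 and 127 CPM in KO and 86.0 and 131 CPM in WT given above (log2 fold change 0.55 ± 0.23, unadjusted p = 0.0412, edgeR adjusted p = 0.9999). The KO and WT libraries overlapped. Within cluster 9 alone the Tmem100 log2 fold change was 0.05 ± 0.15 and within cluster 2 it was 0.52 ± 0.30, in fits added after the data were seen. In cluster 2 the member with an unadjusted p under 0.05 was Bmp4, at 2.66 and 3.14 CPM in KO and 7.96 and 5.18 CPM in WT (-1.09 ± 0.34, unadjusted p = 0.0099). The smooth muscle or pericyte markers of the arterial-like class summed to 110.6 and 84.99 CPM in KO and 49.6 and 50.7 CPM in WT. The part of these markers and of the cluster 9 share in the Tmem100 value was not tested. That value reversed (-0.10) when only cells with under 5% mitochondrial UMIs were kept. In barrier-like cells 0.0335% of 11948 genes passed and 1.55% had an unadjusted p under 0.05, against 0 and 1 of 10 members. Both KO libraries lay below both WT libraries for 6 of the 10, namely Bmp4, Smad6, Smad7, Id1, Id2 and Tmem100. Over all 11948 genes the genotypes did not overlap for 21.9%, counting both directions. The difference between these shares was not tested. Of the members 9 had a log2 fold change below 0, at a median of -0.26 against -0.003 over all genes. Bmp4 there was at 3.74 and 2.97 CPM in KO and 8.41 and 4.28 CPM in WT (-0.84 ± 0.33), a low level at which cells thinned to 5000 UMIs turned the direction (0.049).

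In venous-like cells 0.0268% of 11174 genes passed and 1.52% had an unadjusted p under 0.05, against 0 and 1 of the 9 members tested, with Tmem100 too low. Smad6 was at 3.49 and 3.66 CPM in KO and 10.3 and 5.03 CPM in WT, a log2 fold change of -0.97 ± 0.36 (unadjusted p = 0.0195, edgeR adjusted p = 0.9998). Both KO libraries lay below both WT libraries, and WT replicate 1 was the high one. Of the 9 members tested, Smad6 and Smad7 did not overlap between genotypes, nor did 24.3% of all 11174 genes. The summed arterial markers of the venous-like class were 99.9 and 126 CPM in KO and 159 and 143 CPM in WT, and their part in the Smad6 value was not tested. Without WT replicate 2 the Smad6 change was -1.46 (edgeR adjusted p = 0.0306). In sinusoidal or lymphatic-like cells 0.0655% of 10679 genes passed and 1.68% had an unadjusted p under 0.05, against 0 and 2 of 9 members tested, Tmem100 again being too low. Id1 there was at 129 and 142 CPM in KO and 181 and 213 CPM in WT (-0.54 ± 0.15, unadjusted p = 0.0044). Id2 was at 126 and 144 CPM in KO and 183 and 185 CPM in WT (-0.43 ± 0.14, unadjusted p = 0.0109). For both genes the KO libraries lay below the WT libraries, and both had an edgeR adjusted p of 0.9999. The KO libraries of Id3 also lay below. Thus 3 of the 9 members tested did not overlap between genotypes, nor did 22.7% of all 10679 genes. In the endothelial-like cells without a subtype 0.0753% of 13286 genes passed and 1.51% had an unadjusted p under 0.05, against 0 and 0 of 10 members.

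In hemogenic-like cells 0.0216% of 9239 genes passed and 2.74% had an unadjusted p under 0.05, against 0 and 0 of the 9 members tested, with Bmp4 too low. Acvrl1 was at 21.5 and 21.1 CPM in KO and 19.8 and 14.1 CPM in WT (0.42 ± 0.35), Id1 at 177 and 148 CPM in KO and 261 and 169 CPM in WT (-0.36 ± 0.20), and Tmem100 at 19.4 and 18.9 CPM in KO and 0 and 13.5 CPM in WT (0.93 ± 0.51). In the same cells the arterial markers summed to 459 and 596 CPM in KO and 303 and 428 CPM in WT, and the endothelial markers to 1927 and 2142 CPM in KO and 1855 and 1716 CPM in WT. Their part in the Acvrl1 and Tmem100 values was not tested. Tmem100 passed without WT replicate 2 (edgeR adjusted p = 0.00967), where the only WT cells left are the 12 with no Tmem100 UMI. In mesenchymal-like cells 0.00821% of 12182 genes passed and 2.45% had an unadjusted p under 0.05, against 0 and 1 of 10 members. All 10 had a log2 fold change below 0, at a median of -0.17 against -0.005 over all genes. Without WT replicate 1 the median over the members was 0.097. Acvrl1 and Eng did not overlap between genotypes, nor did 25.3% of all genes. Eng there was at 4.23 and 8.75 CPM in KO and 11.1 and 10.6 CPM in WT (-0.79 ± 0.34, unadjusted p = 0.0392), while the summed endothelial markers of the class were 155 and 212 CPM in KO and 233 and 261 CPM in WT. The part of those endothelial transcripts in the Eng value was not tested. The Bmp4 level of mesenchymal-like cells, the non-endothelial source, overlapped between KO and WT, as given above.

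In primordial germ cell-like cells, which migrate through this region, 0.135% of 10370 genes passed and 3.27% had an unadjusted p under 0.05, against 0 and 3 of the 9 members tested, Tmem100 being too low. Id1 was at 98.1 and 43.2 CPM in KO and 36.7 and 30.6 CPM in WT (1.10 ± 0.42, unadjusted p = 0.0458), Id2 at 50.3 and 21.9 CPM in KO and 20.9 and 17.3 CPM in WT (0.94 ± 0.37), and Bmp4 at 7.19 and 2.97 CPM in KO and 1.93 and 2.47 CPM in WT (1.06 ± 0.50). KO replicate 1 was the high library in all 3 genes. The summed erythroid markers of the class were 798 and 25.7 CPM in KO and 167 and 21.6 CPM in WT, and their part was not tested. Without KO replicate 2, Id1 and Id2 passed (1.62 and 1.48). In neural-like cells 0.0112% of 8950 genes passed and 2.26% had an unadjusted p under 0.05, against 0 and 1 of the 5 members tested. Of these 5 members 1, Id1, did not overlap between genotypes, nor did 26.7% of all 8950 genes. Id1 was at 381 and 259 CPM in KO and 237 and 159 CPM in WT (0.73 ± 0.24, unadjusted p = 0.0104), with both KO libraries above both WT libraries, and it passed without KO replicate 2 (0.98, edgeR adjusted p = 0.00141).

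Over the 9 classes other than the endothelial-like sum, 7 of 10 members had both KO libraries above both WT libraries in some class and below them in another, as did 26.3% of the 12980 genes tested in at least 2 of these classes. Among the 7556 genes tested in every one of these classes the share was 28.5%. No test was made of the difference between members and all genes. The difference of the KO effect between classes was tested directly for 2 pairs with an interaction term, with 0 of 10 members passing in each. For mesenchymal-like minus endothelial-like cells 0.133% of 15064 genes passed, and the members with an unadjusted p under 0.05 were Acvrl1 (-0.63 ± 0.22) and Eng (-0.68 ± 0.25). In mesenchymal-like cells these were low, Acvrl1 at 3.78 to 6.69 CPM and Eng at 4.23 to 11.1 CPM. Germ cell-like cells held 1.98 to 3.13 and 8.72 to 14.3 CPM. Endothelial markers of the mesenchymal-like class summed to 155 and 212 CPM in KO and 233 and 261 CPM in WT, and their part was not tested. Eng passed without KO replicate 2 and Id3 without WT replicate 2. For hemogenic-like minus arterial-like cells 0% of 11712 genes passed, with 0 members at an unadjusted p under 0.05 and differences from -0.49 (Id2) to 0.88 (Bmp4).

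Of the 55 other pathway genes, 23 to 45 were tested per class and edgeR called 0 in each of the 10 classes. The number at an unadjusted p under 0.05 was 0 to 3 per class. The lowest adjusted p was that of Fst, the secreted activin and BMP antagonist follistatin, in the endothelial-like sum (log2 fold change -1.79 ± 0.39, edgeR adjusted p = 0.46). Its endothelial UMIs came largely from the endocardial-like class, at 23.9 and 33.6 CPM in KO and 134 and 137 CPM in WT, a class too small to be tested. Grem1, an antagonist, was at 8.19 and 11.7 CPM in KO and 16.1 and 27.5 CPM in WT mesenchymal-like cells (-1.10 ± 0.30, edgeR adjusted p = 0.9998). Bmp2 was at 10.6 and 11.7 CPM in KO and 18.4 and 14.2 CPM in WT endothelial-like cells (-0.53 ± 0.17, edgeR adjusted p = 0.9998).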

How the data were processed

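The deposited matrices hold UMI counts per gene and barcode, not normalized, made with Cell Ranger 3.1.0 per the file headers; Seurat 4 is named in the submitters' processing notes without a role, and neither a genome build nor an aligner is named in the labels or headers (not given in the sources used here). Rows for Mir223 are not analysed here. Library totals were 109713066 and 167542930 UMIs in KO and 95158639 and 181682389 UMIs in WT.

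Barcodes with at least 1000 genes and at most 10% mitochondrial UMIs were kept, and doublets, scored against simulated ones per library, were removed (235 and 578 in KO, 85 and 771 in WT). Cells were scaled to 10000 UMIs, and 2000 variable genes, without the 10 genes and the other pathway genes, gave 40 components, 20 neighbors and 24 Leiden clusters at resolution 1 (Python 3.11.15, leidenalg 0.10.2, scikit-learn 1.9.0). A cluster took a class name at a mean marker log2 fold of at least 1.5 (endothelial subtypes 0.5) with at least 3 detected markers. At least 1 marker of that list also had to be among the 10 leading genes, with no other list having more there. The names are rebuilt from markers and may differ from the study's.

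UMIs were summed per class and library. Classes with at least 20 cells in each library (10 for hemogenic-like cells) were tested with edgeR 4.0.16 (R 4.3.3; TMM scaling, filterByExpr, robust quasi-likelihood fit, Benjamini-Hochberg adjusted p over all genes of a class, threshold 0.05), after the script had been tested on simulated data. DESeq2 1.42.0, no filter on low counts, the replicate number as a block, cells thinned to 5000 UMIs, other cell filters and clusterings, and leaving out each library were alternatives. Intervals and floors (3 UMIs) cover counting error only. The 10 genes, the pathway genes and the marker lists were chosen with earlier results of these data known. Every one of the 10 genes is named, as are the 14 pathway genes with the highest mean level within their roles.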

Additional observations from a re-analysis of the deposited data

Results flagged for a closer look

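In 7 of the 10 genes, both KO libraries lay above both WT libraries in at least 1 class and below them in another, a pattern that 26.3% of the 12980 genes tested in at least 2 of the 9 classes also had. Among the 7556 genes tested in every class the share was 28.5%. The difference between the classes where a member was higher and lower was not tested, and none of the member values passed the adjusted threshold. All values are log2 fold changes of KO over WT. Id1 was higher in primordial germ cell-like (1.10) and neural-like cells (0.73) and lower in sinusoidal or lymphatic-like (-0.54), endothelial-like cells without a subtype (-0.36) and barrier-like cells (-0.32). Id2 was higher in primordial germ cell-like (0.94) and arterial-like cells (0.22) and lower in sinusoidal or lymphatic-like (-0.43) and barrier-like cells (-0.28). Id3 was higher in arterial-like (0.14) and lower in sinusoidal or lymphatic-like cells (-0.13). Smad6 was higher in arterial-like (0.25) and lower in venous-like (-0.97) and barrier-like cells (-0.23). Tmem100 was higher in hemogenic-like (0.93) and lower in barrier-like cells (-0.39). Bmp4 was higher in primordial germ cell-like (1.06) and lower in barrier-like cells (-0.84). Acvrl1 was higher in hemogenic-like (0.42) and lower in mesenchymal-like cells (-0.65). Its mesenchymal-like level was only 3.78 to 6.69 CPM, against 1.98 to 3.13 CPM in germ cell-like cells.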

How the results depend on the processing

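Of 251 alternative values of 23 log2 fold changes, 223 kept their direction and side of the threshold, 14 newly passed it and 14 reversed. The count of the 10 genes called, 0 in each class, became 2 in sinusoidal or lymphatic-like, 2 in primordial germ cell-like and 1 in neural-like cells with the replicate number as a block, 2 in primordial germ cell-like cells with no filter on low counts and 1 with under 5% mitochondrial UMIs. In the block fit the sinusoidal or lymphatic-like changes were -0.53 (Id1, edgeR adjusted p = 0.00017) and -0.44 (Id2, edgeR adjusted p = 0.0081). The block also moved the calls over all genes to 65 from 7 in sinusoidal or lymphatic-like, to 71 from 14 in primordial germ cell-like and to 22 from 1 in neural-like cells. With 1 library left out it ranged from 0 to 1 in endothelial-like, venous-like, hemogenic-like and neural-like cells and from 0 to 2 in primordial germ cell-like cells. Same-numbered libraries deviated together with r of 0.167 to 0.332, but with 2 pairs and no label of a shared batch they share only a number. Other pathway genes called, 0 in each class, became 1 in endothelial-like cells under DESeq2, no filter and the block (Fst), with 0 to 2 when a library was left out. They became 1 with no filter and 2 with the block in mesenchymal-like cells, with 0 to 2 when a library was left out, and ranged from 0 to 1 in venous-like and 0 to 2 in primordial germ cell-like cells. The mesenchymal-like minus endothelial-like difference called 1 member with no filter and 0 to 1 with a library left out. Direction reversed at under 5% mitochondrial UMIs for Tmem100 in arterial-like (-0.10) and endothelial-like (-0.26), Id3 in endothelial-like (-0.062) and Acvrl1 in hemogenic-like cells (-0.99), and with thinned cells for Bmp4 in barrier-like (0.049) and Id1 in hemogenic-like cells (0.077); the cause was not tested. Leaving out a library in endothelial-like cells gave -0.089 to 0.31 for Bmp4, -0.13 to 0.20 for Acvrl1, -0.29 to 0.060 for Eng, -0.33 to 0.14 for Bmpr2 and -0.036 to 0.048 for Id3. Without thinning, the mean share of cells with a UMI was 67.7% for Bmp4 in venous-like, 44.8% for Bmp4 in mesenchymal-like, 41.4% for Tmem100 in arterial-like and 79.6% for Acvrl1 in arterial-like cells. Calls over all genes in endothelial-like cells were 18, against 41 with DESeq2, 83 with no filter, 45 with the block and 17 to 136 with a library left out. In hemogenic-like cells they were 2, against 2, 19, 29 and 17 to 60 in the same order, and in mesenchymal-like cells 1, against 5, 52, 132 and 36 to 67. At resolution 0.5, or with the pathway genes kept in the clustering, no venous-like class formed, and at resolution 0.5 no hemogenic-like class either; 8 of 10 genes kept the same highest class in each. Bmp4 was then highest in mesenchymal-like and Id2 in endocardial-like cells at resolution 0.5, and Eng and Smad6 in arterial-like cells with the pathway genes kept. Eng was also highest in arterial-like cells with doublets kept and as a mean over cells. The hemogenic-like comparison is limited by the 12 cells of WT replicate 1.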
